A study of Mus musculus with 12 samples.

Results

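Of 107115 candidate regions tabulated in mouse bone marrow progenitors, 1075 (1.0%) were methylated in wild type and lost less than 5 percentage points of methylation in a Dnmt1 mutant. These small-loss regions were chosen from the measured levels: a mean of 60% or more over the 3 wild-type columns, and a mutant mean below the wild-type mean by 0 to under 5 points. They made up 1.15% of the 93775 candidate regions with a wild-type mean of 60% or more. The other 92700 of these are called other methylated regions here, and the 34233 of them with a wild-type mean of 90% or more are the closer comparison. Wild-type BALB/c mice were compared with BALB/c mice whose genotype the labels write as dnmt1-/-, whereas the series describes a missense mutation generated in mice after hypomorphic fish alleles. The cells were lineage-negative marrow, that is, marrow depleted of cells with markers of mature blood lineages, and nothing in the labels gives the age or sex of the animals or says whether marrow was pooled. Each genotype had 6 libraries, made from 3 replicate numbers with 2 kits (bisulfite and enzymatic conversion), and the deposited table has 1 column per genotype and number. The replicates are not stated to come from separate animals, so the spread between columns may be technical, and the number of reads behind each level is unknown. All differences below are mutant minus wild type.

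DNMT1 restores methylation on the newly made strand after each round of DNA replication. It is brought to hemimethylated CpGs by UHRF1, and sites that are copied less faithfully lose methylation with successive divisions. Some sequences have further protection: ZFP57 and related zinc finger proteins bind methylated DNA with the letters TGCCGC at imprinted control regions and, with TRIM28, keep methylation there. Promoters of many germline genes are another textbook class, densely methylated and silent in body cells.

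Reference sequence could be read for only 9 small-loss regions. The first 4 stretches below are from these 9 and are shown because they lie at genes described further on. They include the 3 with the most CpGs per length, and they do not represent the 1075 regions. Each is the part of a small-loss region that lies in the 250 bases before a gene start. The last is a methylated region at the germline gene Sohlh2 that was not a small-loss region. Sequences are from RefSeq (GRCm38.p6), on the strand of the gene, 5′ to 3′, with each CpG in capitals.
Dazl, chr17:50293653-50293752, minus strand, 10 CpGs: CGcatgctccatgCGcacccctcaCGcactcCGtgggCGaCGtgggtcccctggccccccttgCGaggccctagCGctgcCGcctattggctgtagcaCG
Hsf5, chr11:87616914-87617040, plus strand, 10 CpGs: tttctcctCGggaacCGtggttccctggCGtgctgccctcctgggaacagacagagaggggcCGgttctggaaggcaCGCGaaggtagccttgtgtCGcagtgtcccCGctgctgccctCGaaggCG
Mcts2, chr2:152686898-152686971, plus strand, 7 CpGs: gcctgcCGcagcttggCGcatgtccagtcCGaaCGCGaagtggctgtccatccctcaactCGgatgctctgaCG
Tmprss12, chr15:100280587-100280836, plus strand, 9 CpGs: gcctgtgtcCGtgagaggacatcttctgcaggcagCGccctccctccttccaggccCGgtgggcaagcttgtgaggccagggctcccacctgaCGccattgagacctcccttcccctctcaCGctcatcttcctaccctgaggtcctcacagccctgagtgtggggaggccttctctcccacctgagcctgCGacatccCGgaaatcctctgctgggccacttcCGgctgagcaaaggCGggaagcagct
Sohlh2 (other methylated region), chr3:55181837-55182033, plus strand, 12 CpGs: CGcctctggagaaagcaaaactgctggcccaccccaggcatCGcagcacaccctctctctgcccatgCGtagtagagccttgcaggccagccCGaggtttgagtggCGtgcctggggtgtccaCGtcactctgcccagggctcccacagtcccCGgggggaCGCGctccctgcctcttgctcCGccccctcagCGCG

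The 9 regions were those that overlapped a 300-base promoter window (250 bases before a gene start and 50 after) by 50 bases or more. Over these overlaps the median CpG density was 4.26 per 100 bp (quartiles 3.67 and 7.87), and it was 2.44 per 100 bp (quartiles 1.67 and 3.67) for 1825 other methylated regions measured the same way. The median GC content was 63.5% against 54.7%. The letters TGCCGC, searched on both strands, stood in 4 of the 9 windows (44.4%), in 9.48% of the windows of other methylated regions and in 11.6% of all 32851 RefSeq promoter windows. Among the printed stretches, those of Dazl and Mcts2 contain them once each and those of Hsf5, Tmprss12 and Sohlh2 do not. A match is a description of the letters and not a binding site. The 9 regions were also richer in CpGs and GC than the others, and the difference in these shares was not tested.

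The small-loss regions were almost fully methylated in both genotypes. Their mean level was 92.9%, 93.1% and 93.4% in wild-type replicates 1, 2 and 3, and 88.2%, 89.3% and 90.4% in mutant replicates 1, 2 and 3. The genotype means were 93.1% ± 0.266 and 89.3% ± 1.09 (SD, n = 3 each), a difference of -3.84 points that the choice of regions fixed. Other regions with a wild-type mean of 90% or more started from the same level, 92.8% ± 0.329, and reached 79.5% ± 2.46 in the mutant (SD, n = 3 each). Their mutant replicates stood at 77.0%, 79.5% and 81.9%. In both sets mutant replicate 1 was the lowest and mutant replicate 3 the highest, so the order of the mutant columns was the same at regions of small and of ordinary loss. Region by region, mutant replicate 1 was the lowest mutant column at 558 small-loss regions (51.9%) and at 61.2% of other methylated regions. The median SD between mutant replicates was 2.5 points at small-loss regions and 3.66 points at other regions of 90% or more.

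**Figure D1:**
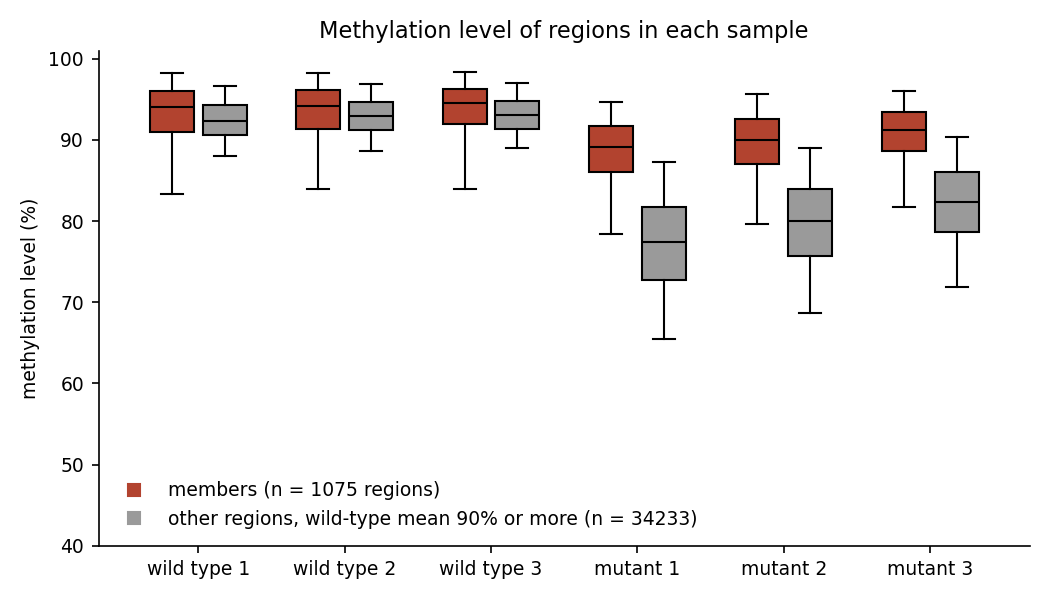
Methylation level (%) in each of 3 wild-type and 3 mutant samples for the 1075 small-loss regions (members) and the 34233 other regions with a wild-type mean of 90% or more. Boxes show the quartiles and median over regions and whiskers the 5th and 95th percentiles: in wild type the medians of both sets lie between 92.4% and 94.6%, and in the mutants those of the members lie between 89.1% and 91.2% and those of the other regions between 77.4% and 82.4%.

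Loss of methylation was otherwise nearly universal in the table. limma with Benjamini-Hochberg adjustment called 23 small-loss regions (2.14%) lower in the mutant, where 93.5% of all candidate regions were called lower. It called 0 of them higher, where 0.0485% of all regions were. All mutant values lay below all wild-type values at 430 small-loss regions (40%), against 94.3% of all regions. The rule used this contrast, so these counts describe the choice and support nothing. A set this small sits at the edge of the table: 11046 regions with any wild-type level of 60% or more lost 5 to under 10 points and 24343 lost 10 to under 15. Candidate regions were tabulated by the authors as possible differences, and methylated DNA that was never tabulated was not measured here.

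The limits of the rule cut through a continuum. Regions just inside 5 points of loss were at Itpr3, near 1700008P02Rik and at Nol6, with differences from -4.98 to -4.97, and regions at Xpnpep1, near Npas2 and at Ccnd1 stood at -5.0 and were left out with 20 others that equal this limit within 1e-09 points. At the limit of no loss, regions near Trp53inp1 and at Sh2b3 and Zfp30 were inside with -0.037, -0.0476 and -0.05, and regions at Jak3, Zfpm1 and Cdyl2 were outside with 0.0588, 0.0769 and 0.128. At the wild-type limit, Smyd2 (60.3%), Gnas (61.8%) and Ncf1 (62.1%) were inside, and Chst8 (59.5%), Tgfbr3l (59.0%) and Rab3c (58.3%) were outside. No break in the values separates the sets at any of the limits.

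In mutant replicates that the choice did not use, the losses were larger than the rule allows and smaller than at other highly methylated regions. The rule was applied to 5 of the 6 columns and the difference was then read with the column left out. With mutant replicate 1 left out, 2393 regions were chosen, and their difference in that replicate was -9.33 points. With mutant replicates 2 and 3 left out it was -6.92 and -5.06 points. In the same columns, other regions of 90% or more differed by -15.9, -13.2 and -10.8 points. The chosen regions had the smaller difference in each of these 3 mutant columns. The spread between columns may be technical, so a column left out may not be an independent reading. Only 16.1% (mutant replicate 1) to 48.9% (mutant replicate 3) of them stayed within the limits of the rule there. The wild-type side of these differences was used in the choice. The other regions were not matched to the chosen ones in length, so the gap is a description and was not tested. In mutant replicate 1, 41.0% of the regions chosen without it had lost 10 points or more. With wild-type replicates 1, 2 and 3 left out, the difference was -5.22, -5.69 and -6.04 points, but there the mutant side consists of the values the choice used, so these are no independent reading. Single regions below are therefore described with all 6 values.

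**Figure D2:**
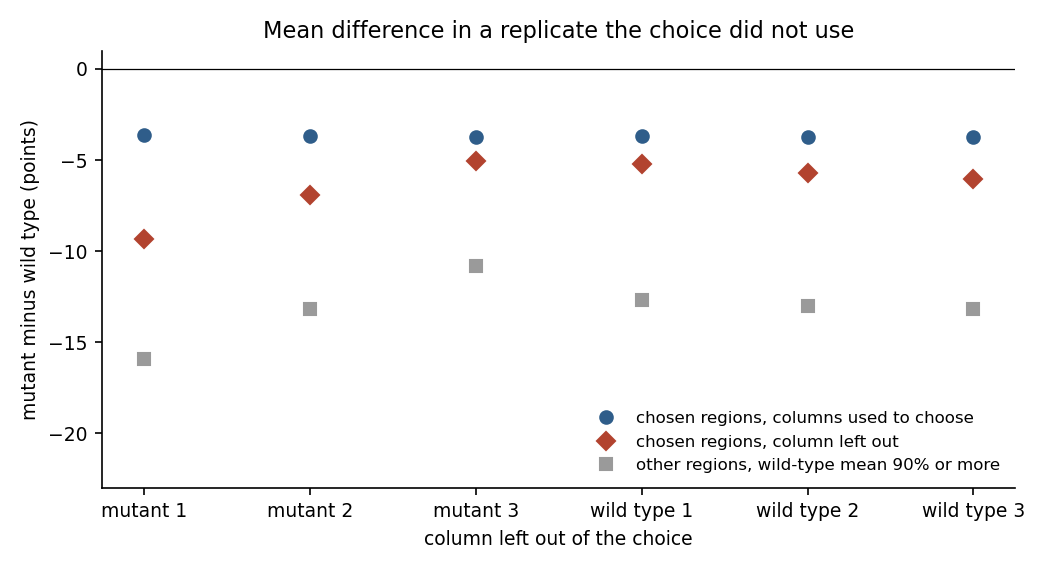
Mean difference between mutant and wild type (percentage points) when each column in turn was left out of the choice of regions. Circles are the chosen regions in the columns used to choose them (-3.75 to -3.63), diamonds the same regions read in the column left out (-9.33 to -5.06) and squares other regions with a wild-type mean of 90% or more (-15.9 to -10.8). Only the mutant columns left out give mutant levels that the choice did not use.

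Small-loss regions were short and came from the top of the methylation range. The share of regions that met the rule was 0.0917% at wild-type levels of 60 to 70%, 0.144% at 70 to 80%, 0.293% at 80 to 90%, 1.72% at 90 to 95% and 8.32% above 95%. In all, 934 of the 1075 (86.9%) had a wild-type mean of 90% or more, against 36.9% of other methylated regions. Their median length was 269 bp (quartiles 159.5 and 451), against 588 bp for other regions of 90% or more. Among all regions of 90% or more, the share meeting the rule was 31.7% (108 of 341) under 100 bp, 12.1% at 100 to 200 bp, 4.26% at 200 to 400 bp, 1.52% at 400 to 800 bp and 0.382% (38 of 9945) from 800 bp. The median loss over all regions moved the same way, from -6.57 points under 100 bp to -13.5 points from 800 bp. The table gives no number of CpGs or reads per region, so the part of region length in these shares was not tested.

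**Figure D3:**
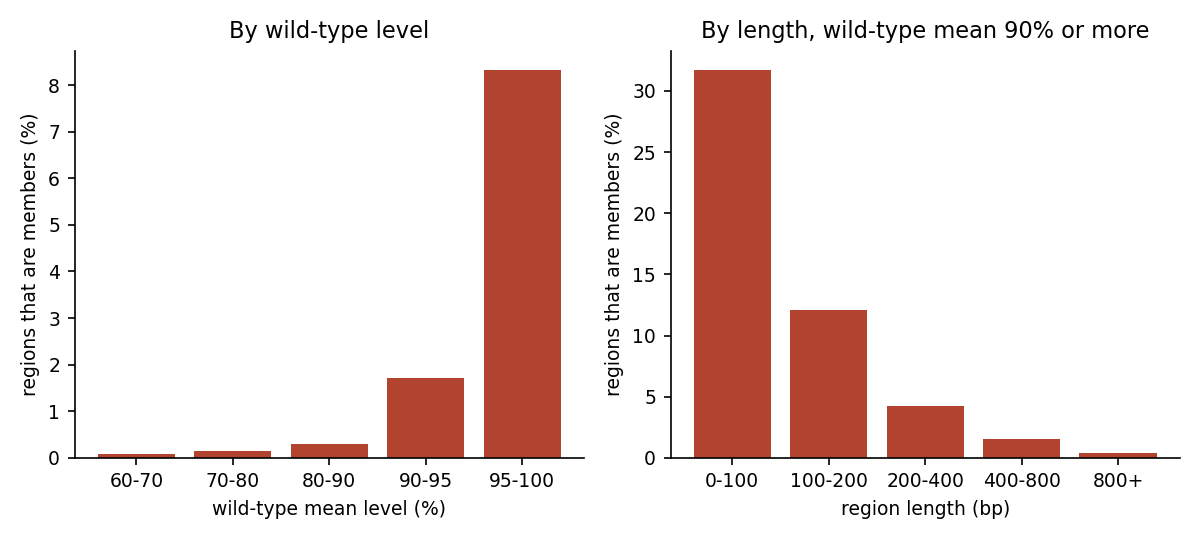
Share of candidate regions (%) that are small-loss regions (members), by wild-type mean level (left, regions of 60% or more) and by region length in bp (right, regions of 90% or more). Bars rise from 0.0917% to 8.32% with the wild-type level and fall from 31.7% to 0.382% with length.

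Most small-loss regions lay inside genes. Of 1039 regions that could be placed, 832 (80.1%) were in bodies of protein-coding genes, 29 (2.79%) within 1 kb of a protein-coding gene start and 178 (17.1%) between genes. For other regions of 90% or more these shares were 78.3%, 2.0% and 19.7%, and for all other methylated regions 66.5%, 3.44% and 30.1%. Among regions in a single gene of known strand outside the Zfp genes, 261 of 656 small-loss regions (39.8%) fell in the last 20% of the gene, against 34.5% of other regions of 90% or more. The first 20% held 7.47% and 8.89%. A region that the authors listed as hypomethylated was a median of 14.3 kb away, against 10.3 kb for other regions of 90% or more, and 23.4% against 32.8% had a listed region within 5 kb. None of the 1075 was itself listed. Among the listed regions at Plec, Asmt, Sh2b3, Zfp467 and Dazl, the smallest difference was -20.3 points. A limit of 5 points may therefore by itself leave listed regions out.

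Levels were also read at the methylated candidate regions next to them. The 2481 other methylated regions within 5 kb of a small-loss region had mean levels of 74.3%, 76.7% and 79.0% in mutant replicates 1, 2 and 3 and of 89.7%, 90.2% and 90.4% in the wild-type replicates. The difference was -13.4 points. The 90219 other methylated regions farther away differed by -18.9 points from a lower wild-type mean, 85.7% against 90.1%. Within 1 kb the difference was -11.6 points and within 20 kb -15.4 points. Leaving out the small-loss regions fixes a loss of 5 points or more at nearly all of these regions, so the losses are given as a description, and the gap between near and far regions was not tested.

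The regions also lay near one another. Another small-loss region was within 5 kb of 229 of them (21.3%), whereas 4.78% of other regions of 90% or more had one that near. Regions each within 5 kb of the next formed 85 chains of at least 2, of which 33 had 3 or more. Spread over genes, 700 protein-coding genes contained a small-loss region, 557 of them a single one and 57 at least 3. Of the 57, 14 are overlapping gene models of the gamma protocadherin cluster that share the same 3 regions.

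The longest chain was in Plec, which encodes plectin, a large linker of intermediate filaments to the rest of the cytoskeleton. Over 13938 bp at the lower-coordinate end of the gene (chromosome 15, 76172769 to 76186707, mm10), 14 of 24 candidate regions met the rule. Their mean was 95.7%, 96.6% and 97.2% in wild-type replicates and 92.0%, 94.6% and 94.1% in mutant replicates. These averages did not overlap, while at single regions the groups overlapped at 8 of the 14. They were apart at 6 of the 14, where they were at 40% of all small-loss regions and 94.3% of all candidate regions. Of the 10 other regions in this stretch, 9 had a lower mean in the mutant and 1 a higher one (0.963 points), with a median difference of -6.46 and a lowest of -7.74 points. The picture changed at its edge: the next region differed by -15.6 points (72.1% ± 2.76 against 87.7% ± 1.09, SD, n = 3 each), and 10 regions of the Plec locus were on the authors' hypomethylated list. The deepest of these fell from 70%, 62.6% and 70.5% in wild type to 11.2%, 7.0% and 7.29% in the mutant. A single gene thus held both the longest run of small losses and a region with a difference of -59.2 points.

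Zfp865, a zinc finger gene, had 6 of 8 candidate regions meet the rule over 2086 bp (chromosome 7, 5029393 to 5031479). They averaged 96.9%, 96.3% and 97.6% in wild type and 94.9%, 94.4% and 93.7% in the mutant. Regions elsewhere in the gene lost up to -18.0 points. In Sh2b3, which encodes LNK, an adaptor that restrains cytokine signalling in blood progenitors, all 5 candidate regions within 634 bp met the rule (chromosome 5, 121828310 to 121828944). Their wild-type means were 96.8%, 94.3% and 96.9%, and their mutant means 92.1%, 91.7% and 96.2%. Mutant replicate 3 lay among the wild-type values there and replicates 1 and 2 below them. In Zfhx3, a homeobox transcription factor gene, 4 of 6 regions over 3653 bp met the rule (91.1%, 91.3% and 94.3% in the mutant against 93.9%, 96.1% and 93.7% in wild type).

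**Figure D4:**
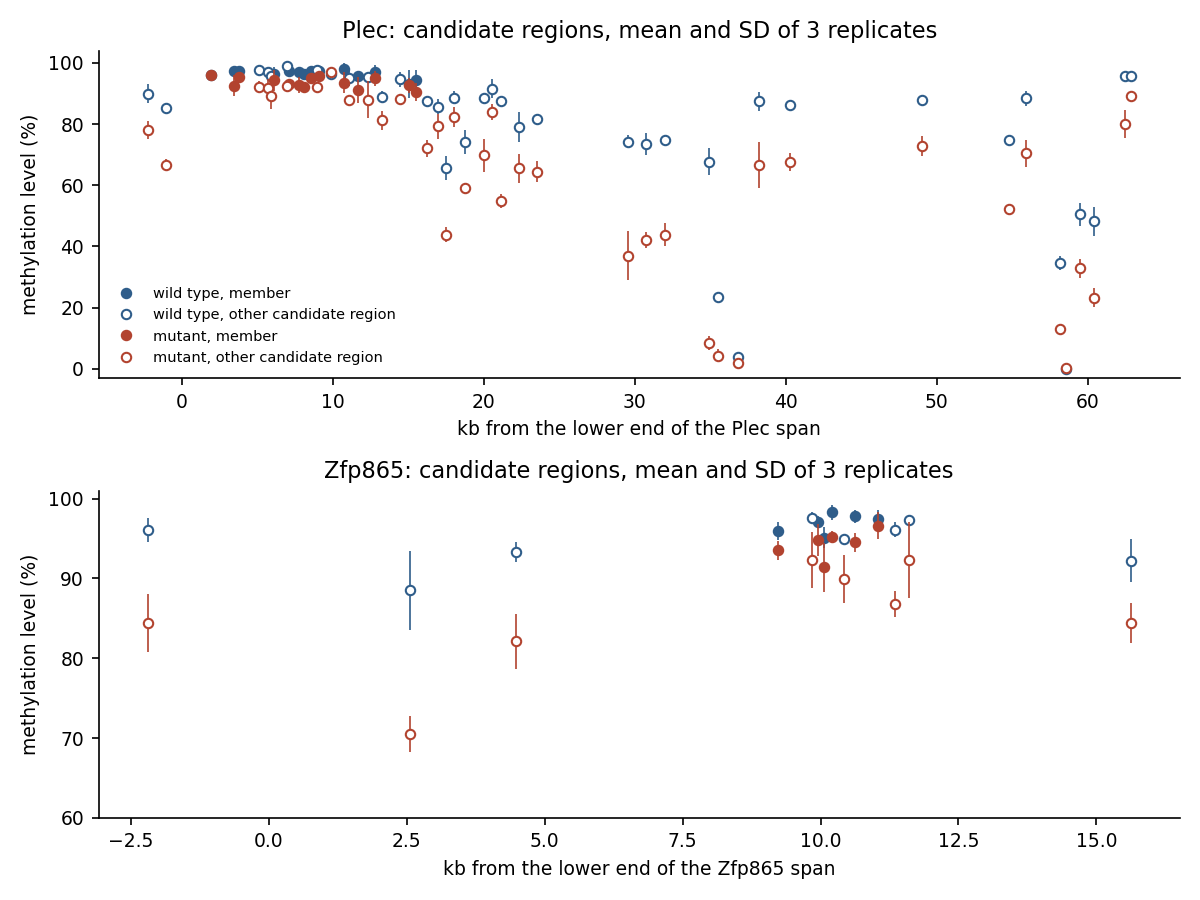
Methylation level (%) of candidate regions along Plec (top) and Zfp865 (bottom, axis from 60%) against distance in kb from the lower-coordinate end of the gene span, as mean and SD of 3 wild-type (blue) and 3 mutant (red) replicates. Filled points are small-loss regions (members) and open points other candidate regions: in Plec the 14 filled points crowd near the lower end at mutant levels between 90.4% and 96.0%, and regions farther along fall as low as 8.49% from 67.7%.

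In Asmt, which encodes the last enzyme of melatonin synthesis, small and large losses alternated. Of 13 candidate regions over 5235 bp on chromosome X, 4 met the rule, and the others differed by a median of -17.4 and at most -37.0 points. The region at 170676343 to 170676429 had 96.9%, 96.8% and 93.8% in wild type and 94.0%, 86.6% and 94.4% in the mutant. The region that begins at the next deposited base (170676430 to 170676534) had 90.2%, 92.2% and 90.7% in wild type and 72.9%, 68.8% and 70.6% in the mutant, and the authors listed it. The genotype groups overlapped in the first of these adjoining regions and were apart in the second.

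The large counts in Tiam1 and Dnah8 were out of many candidate regions. Tiam1, which encodes an activator of the GTPase RAC, had 10 of 106 methylated regions meet the rule, and Dnah8, an axonemal dynein gene of sperm, had 9 of 130. In Tiam1 these averaged 85.7%, 87.3% and 87.3% in the mutant and 91.0%, 91.5% and 91.0% in wild type, whereas other regions there lost up to -44.1 points. Smaller genes with 4 or more were Shank3, a postsynaptic scaffold gene (5 of 28), Irgq, an immunity-related GTPase family gene (4 of 6), Ctu1, which acts in tRNA thiolation (4 of 7), and Srrm2, a nuclear speckle protein gene (4 of 7). In Srrm2 the 4 averaged 92.4%, 94.4% and 95% in the mutant and 97.1%, 97.8% and 98.0% in wild type, and another region of the gene lost as much as -65.9 points.

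Among 10 gene lists, the zinc finger genes with symbols beginning in Zfp held the most small-loss regions. Many Zfp proteins bind DNA through arrays of zinc fingers, and those with a KRAB domain recruit TRIM28. A region was counted at a gene when it overlapped the gene or the 5 kb flanking either end. By this rule 61 of 1049 methylated regions at Zfp genes met the small-loss rule (5.82%), against 1.15% of all methylated regions. limma called 1034 of all 1206 candidate regions at these genes lower (85.7%, against 93.5% of all regions). It called 2 of the 1206 higher, where 0.0485% of all candidate regions were called higher. Within the gene spans alone there were 59, in 35 genes, which is 5.49% of the small-loss regions, whereas 1.23% of other regions of 90% or more overlapped a Zfp gene. Their means were 93.5%, 94.2% and 94.9% in wild type and 90.1%, 90.7% and 91.3% in the mutant. The 834 other methylated regions in Zfp genes went from 87.8% ± 0.367 to 71.5% ± 2.44 (SD, n = 3 each), a difference of -16.4 points. Of the 59 regions, 24 (40.7%) were on chromosome 7, which carries 21.7% of the other methylated Zfp regions, and 12 were on chromosome 6.

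The higher share at Zfp genes was also present within bands of length and level. With a wild-type mean of 90% or more, it was 32.9% (23 of 70) in Zfp genes and 14.4% elsewhere under 200 bp, 14.3% and 4.09% at 200 to 400 bp, and 3.99% and 1.04% from 400 bp. These bands were not alike in level. Under 200 bp, 50 of the 70 Zfp regions and 837 of 2188 others had a wild-type mean of 95% or more. At 95% or more the shares were 42.0% and 23.9% under 200 bp and 24.5% and 7.9% at 200 to 400 bp. From 400 bp they were 5.26% (2 of 38) and 2.44%. The differences in share were not tested. Where strand was known, 19 of 45 small-loss regions in Zfp genes (42.2%) lay in the last 20% of the gene and 0 in the first 20%. For other regions of 90% or more in these genes the shares were 33.8% and 9.51%.

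Several Zfp genes carried more than 1 such region beside others that fell. A stretch of chromosome 6 from 48 to 49 Mb held 12 among 68 methylated regions (17.6%), at Zfp777, Zfp746, Zfp467, Repin1, Zfp775 and Gimap1. In Zfp467 the 3 small-loss regions averaged 95.8%, 94.4% and 96.9% in wild type and 91.0%, 91.5% and 93.2% in the mutant. A region 3582 bp upstream of the Zfp467 start fell from 69.5% ± 1.72 to 35.1% ± 2.94 (SD, n = 3 each). In Zfp777 the 3 averaged 94.4%, 95.7% and 96.8% in wild type and 88.9%, 91.8% and 94.0% in the mutant. These averages did not overlap, and at single regions the groups were apart at 1 of the 3. Over all small-loss regions they were apart at 40%, and over all candidate regions at 94.3%. Zfpm1, which encodes the GATA1 cofactor FOG1, had 3 of 33, at 97.4%, 98.3% and 98.9% in wild type and 96.1%, 96.3% and 95.6% in the mutant. Zfp607a had 2 methylated regions and both met the rule, at 93.6%, 95.7% and 96.1% in wild type and 89.2%, 92.1% and 91.5% in the mutant.

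**Figure D5:**
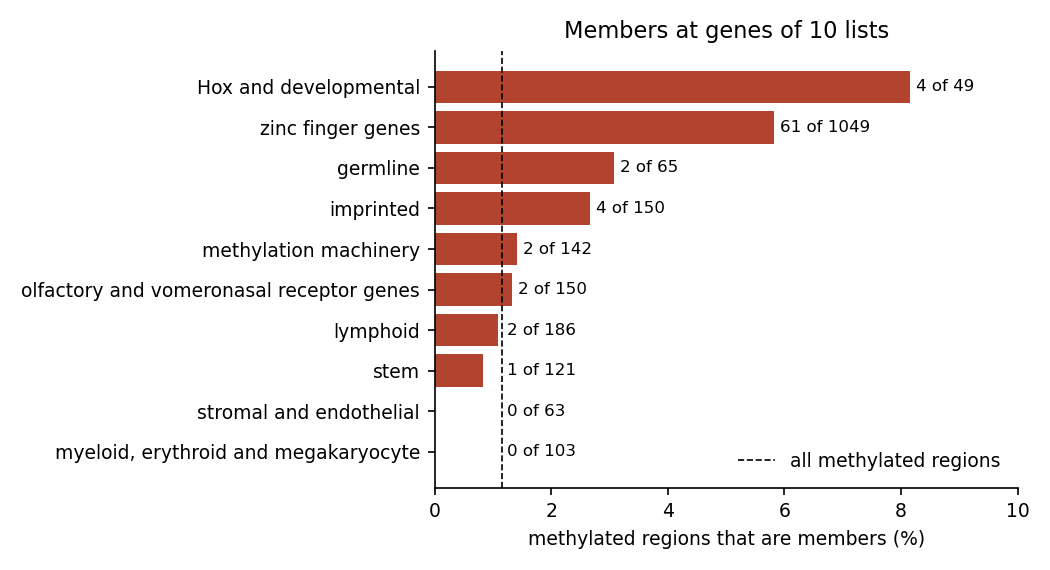
Share of methylated regions (%) at the genes of each of 10 lists that are small-loss regions (members), with the counts beside the bars. The dashed line marks 1.15%, the share over all methylated regions: Hox and developmental genes (8.16%, 4 of 49) and zinc finger genes (5.82%, 61 of 1049) have the longest bars, and 2 lists have none.

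Of the 20 germline genes listed, 2 had small-loss regions, Dazl and Sycp1, both at the gene start. These were 2 of the list's 65 methylated regions (3.08%, against 1.15% of all methylated regions). limma called 64 of its 67 candidate regions lower (95.5%, against 93.5% of all regions). At Dazl, which encodes an RNA-binding protein of germ cells, the region 80 bp upstream of the start (10 CpGs in the stretch printed above) had 96.9%, 96.3% and 92.6% in wild type and 87.1%, 94.4% and 94.6% in the mutant. Mutant replicates 2 and 3 lay among the wild-type values and replicate 1 below them. The region centred 417 bp downstream of the start went from 50.2%, 52.1% and 46.0% to 27.9%, 17.5% and 29.2%, and was listed by the authors. Sycp1 encodes the transverse filament protein of the synaptonemal complex. A region 419 bp downstream of its start had 94.6%, 96.4% and 95.9% in wild type and 92.0%, 88.4% and 92.5% in the mutant, without overlap. Its neighbour at 226 bp lost more, from 92.6% ± 0.77 to 81.8% ± 3.67 (SD, n = 3 each).

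Hsf5, a heat shock factor family gene needed in male meiosis, had 4 of 6 candidate regions meet the rule, centred between 262 bp upstream and 552 bp downstream of its start. Together they stood at 97.8%, 96.8% and 97.2% in wild type and 91.6%, 95.1% and 92.5% in the mutant. A region 5005 bp upstream lost more, from 94.8% ± 0.797 to 81.7% ± 3.76 (SD, n = 3 each). Tmprss12, a serine protease gene expressed in testis, had a region across its start at 97.2%, 96.8% and 97.9% in wild type and 93.9%, 91.1% and 92.2% in the mutant. Sohlh2, a transcription factor gene of early germ cells that was named after its values were seen, had a region 159 bp downstream of its start at 94.3%, 91.4% and 94.4% in wild type and 90.2%, 86.2% and 90.3% in the mutant. The upstream region printed above, whose deposited end lies just before it, went from 90.7%, 94.5% and 92.4% to 71.2%, 77.0% and 80.3%. These regions at a single gene start, both above 90% in wild type, thus differed by -4.48 and -16.4 points.

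Imprinted genes carry methylation on the copy from 1 parent at their control regions, so levels near 50% are the textbook pattern there, and a limit of 60% leaves most such regions out. Small-loss regions at the imprinted list were 4 of 150 methylated regions (2.67%), in H13 with Mcts2, Rasgrf1 and Gnas. The region 228 bp upstream of Mcts2, a retrogene inside H13, had 93.8%, 94.5% and 92.3% in wild type and 94.8%, 87.0% and 96.1% in the mutant, so mutant replicate 2 was low and replicates 1 and 3 were above all wild-type values. Regions on either side of it, centred 591 bp upstream and 31 bp downstream of the start, differed by -11.4 and -5.58 points. In Rasgrf1 the region had 90.2%, 89.7% and 90.1% in wild type and 77.9%, 90.8% and 87.8% in the mutant, where replicate 1 stood apart. The Gnas region was at 65.4%, 64.6% and 55.3% in wild type and 62.2%, 62.5% and 47.1% in the mutant, and replicate 3 was the lowest of its group in both genotypes.

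At genes of the methylation machinery the share was 1.41% (2 of 142), near that of all methylated regions. A region of Dnmt3a, which encodes a de novo methyltransferase, had 95.1%, 95.9% and 97.3% in wild type and 94.1%, 92.8% and 91.7% in the mutant, without overlap. A region of Ehmt2, the gene of the histone methyltransferase G9a, had 93.8%, 93.4% and 93.4% in wild type and 93.5%, 86.5% and 87.5% in the mutant, and mutant replicate 1 lay within the wild-type range. Genes of the Hox and developmental list had 4 of 49 (8.16%, against 1.15% of all methylated regions), a share of few regions that was not tested. Few regions of these genes were methylated at all, 49 of 131. Of the 4, 3 lay in the Hoxa and 1 in the Hoxb cluster or within 5 kb of a listed gene there. The genotype groups overlapped at all 4, whereas they were apart at 40% of all small-loss regions and 94.3% of all candidate regions. The region 784 bp upstream of the Hoxa5 start had 92.5%, 92.5% and 88.5% in wild type and 88.7%, 87.2% and 85.0% in the mutant. Regions around that start lost more, such as the one centred 161 bp upstream, which went from 83.6% ± 4.53 to 67.8% ± 14.5 (SD, n = 3 each).

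Genes of blood identity held few small-loss regions. The lymphoid list had 2 of 186 methylated regions (1.08%), at Cd8a and Foxo1, and limma called 210 of its 232 candidate regions lower (90.5%, against 93.5% of all regions). The Cd8a region, 25 bp long in the gene of a T cell co-receptor chain, had 97.6%, 100.0% and 100.0% in wild type and 96.9%, 97.6% and 92.8% in the mutant. The Foxo1 region, in a transcription factor gene of B cell development, had 88.3%, 90.4% and 94.0% in wild type and 85.9%, 91.4% and 92.1% in the mutant, with the groups overlapping. The stem cell list had 1 of 121 (0.826%), in Kit, the stem cell factor receptor gene, with 90.3%, 96.2% and 95% in wild type and 89.5%, 90.2% and 88.3% in the mutant. The list of myeloid, erythroid and megakaryocyte genes had 0 of 103, and that of stromal and endothelial genes 0 of 63. Olfactory and vomeronasal receptor genes had 2 of 150 (1.33%), both beside rather than within a gene. With so few regions per list, counts of 0 to 2 do not set these lists apart from the 1.15% of all methylated regions.

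At other gene starts, Jade1, which encodes a subunit of a histone acetyltransferase complex, had 95.8%, 96.0% and 95.5% in wild type and 91.3%, 93.1% and 89.7% in the mutant. Madd had 94.9%, 99.1% and 98.1% in wild type and 92.3%, 94.2% and 93.0% in the mutant, and Cyp26c1, a retinoic acid hydroxylase gene, 94.7%, 97.6% and 96.6% against 95%, 91.7% and 90.3%. The groups overlapped at Cyp26c1 and not at Jade1 or Madd. The Taf1c region, 899 bp from the start of a gene for a polymerase I factor subunit, had 94.8%, 94.6% and 97.9% in wild type and 90.3%, 89.4% and 95.4% in the mutant. The highest wild-type mean among the small-loss regions, 99.4% ± 0.808, was at a 56 bp region in Arhgap23, 471 bp from the start of 4933428G20Rik, where the mutant replicates had 96.8%, 97.0% and 96.5% and lay below all wild-type replicates.

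The longest region of the set was 1669 bp in Btbd9 on chromosome 17 (30527073 to 30528742). It had 92.0%, 92.6% and 93.4% in wild type and 86.8%, 88.0% and 88.3% in the mutant. The next longest were 1293 bp in Tiam1 (90.5% ± 1.74 against 86.1% ± 1.42) and 1284 bp in Meaf6, a gene of a histone acetyltransferase subunit (97.1% ± 1.25 in wild type against 92.6% ± 0.81, SD, n = 3 each). In Btbd9, Tiam1 and Meaf6 alike all mutant values lay below all wild-type values.

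Some regions met the rule on a mean of discordant replicates. The largest SD between mutant replicates was 11.7 points, at a region of the gamma protocadherin cluster on chromosome 18, with 55.1%, 78.4% and 68.5% in the mutant and 73.1%, 69.8% and 72.1% in wild type. A Clta region, in a clathrin light chain gene, had 55.9%, 75.7% and 66.4% in the mutant and 63.3%, 73.1% and 74.8% in wild type. In Dst, which like Plec encodes a plakin linker protein, a region had 75.3%, 67.9% and 86.9% in the mutant and 86.5%, 72.0% and 75.4% in wild type. In each of the 3 the mutant replicates spanned the wild-type values.

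Small-loss regions were found on every chromosome of the table. On the autosomes their share of methylated regions ranged from 0.687% on chromosome 9 to 1.62% on chromosome 10. Chromosome X had 4 of 68 (5.88%), all in Asmt, and chromosome Y 3 of 21 (14.3%), shares of few regions that were not tested. In 1 Mb windows, 612 of 2274 contained at least 1, and the 5 to 6 Mb window of chromosome 7, where all 6 were in Zfp865, had the share of 19.4% (6 of 31). The set also reached DNA far from any listed hypomethylated region: a region near Htr1f on chromosome 16 was 2850 kb from the nearest, with 95.2%, 97.4% and 95.8% in wild type and 93.4%, 85.8% and 95.8% in the mutant. At the other extreme, regions in Asmt, Abhd8 and Lasp1 lay 1, 3 and 4 bp from a listed region. The Abhd8 region had 96.8%, 96.7% and 93.1% in wild type and 92.7%, 88.4% and 93.2% in the mutant, and the Lasp1 region 94.2%, 93.4% and 95% against 92.1%, 91.1% and 86.3%.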

How the data were processed

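Whole-genome methylation sequencing of lineage-negative marrow was deposited as a table of methylation levels per candidate region, a fraction from 0 to 1 in 6 columns, 1 per genotype and replicate number, per the file headers. The sources used here do not give how the libraries of the bisulfite and enzymatic kits were combined into a column, nor the aligner or methylation caller. The submitters' processing notes name mm10 as the build, and the file names name metilene as the caller of regions. The authors also deposited lists of hypomethylated and hypermethylated regions with mean fractions, their difference as a score, the count of CpGs and a q-value. Only the positions of the hypomethylated list were used here. Levels were multiplied by 100 to percent. The depth is unknown, so no interval for counting error is given.

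Members, gene lists and named regions were chosen with earlier results of these data known. Named were the longest regions, those at gene starts with the highest wild-type means, the largest chains, up to 3 per list, the most variable, those at the limits, those of highest wild-type mean, and those farthest from and nearest to a listed region. All regions were fitted with limma 3.58.1 (R 4.3.3) on the percent level, with Benjamini-Hochberg adjustment at 0.05, after checks on simulated data. The planned exact test of neighbours is not given, since leaving out the members fixes the direction there. Genes, starts and promoter sequences came from RefSeq tables of GRCm38.p6, the assembly mm10 names. These give no exons, and no promoters on chromosome 18, whose regions were not placed by class. Coordinates are printed as deposited. Where promoter sequence was at hand, the first CpG stood 2 bases after the deposited start (1593 of 1593) and the last 1 base after the deposited end (1543 of 1543), counting from 1. Printed sequences use counted-from-1 positions. Counts, levels and figures were made in Python 3.11.15 (pandas 2.3.3, numpy 2.4.6; plots with matplotlib 3.10.9; scipy 1.17.1). Alternatives were other limits of the rule, medians, a relative loss, a logit scale, other limma settings, the replicate block, region length, distances and leaving out each replicate.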

Additional observations from a re-analysis of the deposited data

How the results depend on the processing

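The size of the set depends on its limit: 180 regions met a limit of 3 points and 12121 one of 10 points. With each replicate left out there were 927 to 2393, the most without mutant replicate 1. The regions themselves also changed: 676 (without mutant replicate 3) to 904 (without mutant replicate 1) of the 1075 remained. With medians of replicates 1572 regions met the rule, and 778 of them were among the 1075. The mean difference read in the column left out was -9.33, -6.92 and -5.06 points for mutant replicates 1, 2 and 3 and -5.22, -5.69 and -6.04 points for wild-type replicates 1, 2 and 3, where the mutant values were those used in the choice. The percent of small-loss regions in Zfp genes (5.49) was 3.94 with medians of replicates, 8.89 at a limit of 3 points, 2.1 at a limit of 10 points and 3.72 to 5.07 with each replicate left out. These alternatives for Zfp genes were chosen after seeing the data. In each of them the share among other methylated regions was below 1%. Using gene spans alone left 1 region at germline genes and 0 at olfactory and vomeronasal receptor genes. With starts taken as 2 kb, 4.33% lay at one. limma called 171 regions of the table higher on a logit scale, 34 among regions of 200 bp or longer and 30 to 63 with each replicate left out. Small-loss regions called lower numbered 547 on a logit scale (50.9%, and 96.2% of all regions), 324 with trend and robust estimation (30.1%, and 95.4% of all), 1 of 708 at 200 bp or longer (96.1% of all) and 15 to 194 with each replicate left out (194 without mutant replicate 3, and 93.4% of all). The cause of these shifts was not tested.

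Deviations of same-numbered columns were correlated at 0.0372, 0.00489 and 0.05, and those of differently numbered columns at -0.0507 to 0.0117. Whether replicate numbers pair the samples cannot be told from these values. With the replicate block, 99903 regions were called lower, 70 higher and 0 of the small-loss regions lower. The difference at neighbours of any wild-type level was -13.3 points. Pairing cannot change this value, since the mean of paired differences equals the difference of the means. Other results, and the 83 named regions, moved by less than the spread between replicates or by less than 1.5 times. Leaving out a single replicate cannot move the mean of its group by more than the SD of that group. At the named regions the outcome of leaving out replicates was therefore fixed by this criterion and is no test of their stability. Of 581 values for the named regions, 26 at 12 regions were above 0. No direction of a called result reversed.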
